A study of Mus musculus with 4 samples.

Results

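Sox2, a transcription factor that holds embryonic stem cells pluripotent, left a dense group of ChIP-exo peaks at the start of Dnah8 on mouse chromosome 17, and its truncated form left a second group along the neighbouring gene Glo1. Both lie in a block of 700 kb, from 30100000 to 30800000 of the mm10 build, that is known for a copy-number gain in some mouse strains. The block was chosen because earlier work on these lists had shown many peaks there, so its peak numbers are given as a description and were not tested. Its members were all peaks with a centre inside it, 49 of the 29255 peaks of 4 lists. Of these, 0 were Halo-Sox2M peaks, 24 Halo-Sox2D peaks, 8 Halo-Sox2 peaks and 17 endogenous Sox2 peaks. They were compared with the 1 Mb on each side, which held 64 peaks.

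ChIP-exo trims the DNA around a crosslinked protein with an exonuclease, so that the place of binding is bounded to within a few bases. All 4 libraries came from D3 mouse embryonic stem cells, with 1 library per group. Halo-Sox2M carries the changes labelled M47G, F50 and M51G (for F50 the label gives no new residue), Halo-Sox2D is Sox2 cut down to residues 1 to 120, and Halo-Sox2 is the unchanged protein. These 3 proteins carry HaloTag, which binds covalently to a resin, and were isolated on that resin, whereas endogenous Sox2 was isolated with an antibody. The sources used here do not say whether the cells with tagged proteins also kept their own Sox2.

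The lists held 1711 Halo-Sox2M, 13833 Halo-Sox2D, 6558 Halo-Sox2 and 7153 endogenous Sox2 peaks, each 1 to 20 bp wide. They give positions without heights or read numbers, so depth is unknown and a missing peak does not show missing binding. Near Sox2, Pou5f1 and Nanog, where Sox2 is known to bind in these cells, Halo-Sox2D, Halo-Sox2 and endogenous Sox2 had 3 to 10 peaks within 50 kb of each gene, while Halo-Sox2M had 1 at Sox2 and 0 at Pou5f1 and Nanog. With 1 library per group no difference between libraries has a replicate check, and every 95% interval below covers counting error only. Neighbouring peaks are not independent, so such intervals are too narrow.

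Sox2 bends DNA through its HMG box, which recognises short motifs, among them ones with an ATTGT core. In embryonic stem cells it often binds beside Oct4. The genes of the block are not known as pluripotency genes. Btbd9 encodes a BTB-domain protein linked to restless legs syndrome in humans. Glo1 encodes glyoxalase 1, the enzyme that clears methylglyoxal, a toxic by-product of glycolysis, with the help of glutathione. Dnah8 encodes an axonemal dynein heavy chain of the sperm tail, and Glp1r encodes the receptor for the incretin glucagon-like peptide 1. Copy number was not measured here.

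The annotation placed the 4 named genes less evenly than the name of the block implies. Btbd9 (30215524 to 30582621, 367 kb) and Glo1 (30592861 to 30612659, 19.8 kb) lay wholly inside. Dnah8 (30626935 to 30875762, 249 kb) crossed the upper edge, with 69.6% of its body inside. Glp1r (30901867 to 30936510) lay outside, 102 kb above the upper edge and so within the upper flank. Zfand3 (30005039 to 30210823), which encodes an AN1-type zinc finger protein, crossed the lower edge. Between Glo1 and Dnah8 lay 1700097N02Rik (30622441 to 30626905), a long non-coding RNA gene whose upper end lies 29 bp below the start of Dnah8. Exons and introns were not told apart, because the gene table gives only the outer ends of each gene.

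A pair of promoter stretches is shown because they mark opposite situations. The 250 bases before the start of Glo1 held 2 Halo-Sox2D peaks, printed in capitals, and the 250 bases leading up to the start of Dnah8 held none, although they lie between groups of peaks on either side. Both are RefSeq sequence of GRCm38.p6, whose primary chromosomes have mm10 coordinates, read 5′ to 3′ in the direction of the gene. The Glo1 stretch is chr17:30612660-30612909 on the minus strand and the Dnah8 stretch is chr17:30626686-30626935 on the plus strand. Promoter entries matched Glo1, Dnah8 and Glp1r, not Btbd9.
Glo1: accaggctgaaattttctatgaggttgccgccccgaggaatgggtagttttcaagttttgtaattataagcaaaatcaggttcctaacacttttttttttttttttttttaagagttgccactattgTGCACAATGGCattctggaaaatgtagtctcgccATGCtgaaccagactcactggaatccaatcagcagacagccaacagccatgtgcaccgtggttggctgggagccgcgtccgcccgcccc
Dnah8: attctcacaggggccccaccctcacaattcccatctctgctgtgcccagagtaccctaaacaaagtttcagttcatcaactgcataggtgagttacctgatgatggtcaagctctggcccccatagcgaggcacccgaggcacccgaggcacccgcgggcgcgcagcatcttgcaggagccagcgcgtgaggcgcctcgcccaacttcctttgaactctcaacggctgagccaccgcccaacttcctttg

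The Sox motif letters ATTGTT and the octamer letters ATGCAAAT were searched on both strands of windows from 250 bases before to 50 after the start. They were found in none of the windows of Glo1, Dnah8, Zfand3 and Glp1r. Sox motifs without an ATTGT core were not searched, so a window without these letters is not shown to lack a Sox motif. Of all 21262 promoter windows of protein-coding genes, 9.05% held ATTGTT and 1.66% held ATGCAAAT. The shorter letters ATTGT, which lie within ATTGTT and were searched after the peaks had been seen, occurred in the Glo1 window once on each strand. The copy on the opposite strand, which reads ACAAT in the printed stretch, lies inside the longer run of capitals, and the other copy ends where that run begins. ATTGT was present on at least 1 strand in 27.7% of all windows and on both in 4.04%. The Dnah8 window had 1 copy, on the opposite strand, and those of Zfand3 and Glp1r had 0.

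Peak density in the block exceeded that of the flanks in the Halo-Sox2D, Halo-Sox2 and endogenous Sox2 lists. Halo-Sox2D had 3.43 peaks per 100 kb in the block (2.2 to 5.1, exact Poisson interval) and 2.05 in the flanks (1.47 to 2.78), a ratio of 1.67 (0.967 to 2.83, exact binomial interval). Halo-Sox2 had 1.14 per 100 kb in the block (0.493 to 2.25) and 0.35 in the flanks (0.141 to 0.721), a ratio of 3.27 (1.03 to 10.6). Endogenous Sox2 had 2.43 per 100 kb in the block (1.41 to 3.89) and 0.7 in the flanks (0.383 to 1.17), a ratio of 3.47 (1.61 to 7.6). The intervals of the 3 ratios overlap, and that of Halo-Sox2D includes equal density. The ratios of Halo-Sox2 and endogenous Sox2 depended on where the edges were set, with 5.71 (on 2 Halo-Sox2 peaks in the flanks) and 6.07 for flanks of 0.5 Mb, 1.83 and 2.94 for flanks of 2 Mb, 5.33 and 5.67 with the edges of the block 0.1 Mb further in, and 1.27 and 2.0 with the edges 0.1 Mb further out.

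Halo-Sox2M had 0 peaks in the block, which allows up to 0.429 peaks per 100 kb, and 2 in the flanks, or 0.1 per 100 kb. Both numbers are at or under what a count of 0 allows, so no ratio is given. Had its list placed the same share in the block as the Halo-Sox2 list did, 2.09 peaks would have been there, and 84.3% of the 3748 windows of 700 kb on the autosomes and X had 0 Halo-Sox2M peaks. An empty window was thus the usual state for this short list. Windows as full as the block in the other lists were not looked at separately.

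Ratios of this size were common over the genome. Among windows of 700 kb with at least 5 peaks in the window and its flanks together, a density at least 2-fold above the flanks was found in 23.9% for Halo-Sox2M, 18.5% for Halo-Sox2D, 21.6% for Halo-Sox2 and 25.0% in the endogenous Sox2 list. The ratio of the block was equalled or passed in 24.6, 11.8 and 14.0% of the windows for Halo-Sox2D, Halo-Sox2 and endogenous Sox2. The peak number itself was rarer. That rarity follows in part from choosing the block for its many peaks, and the block is itself among the windows. Windows with at least as many peaks made up 0.534% for Halo-Sox2D (at least 24 peaks), 1.71% for Halo-Sox2 (at least 8) and 0.293% for endogenous Sox2 (at least 17). The flanks too were denser than the average of the autosomes and X, which was 0.514 peaks per 100 kb for Halo-Sox2D, 0.235 for Halo-Sox2 and 0.259 for endogenous Sox2. For Halo-Sox2 this rests on 7 flank peaks, and the interval of their density (0.141 to 0.721) includes the average. Its lower flank had 0.5 peaks per 100 kb and its upper flank 0.2.

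**Figure D1:**
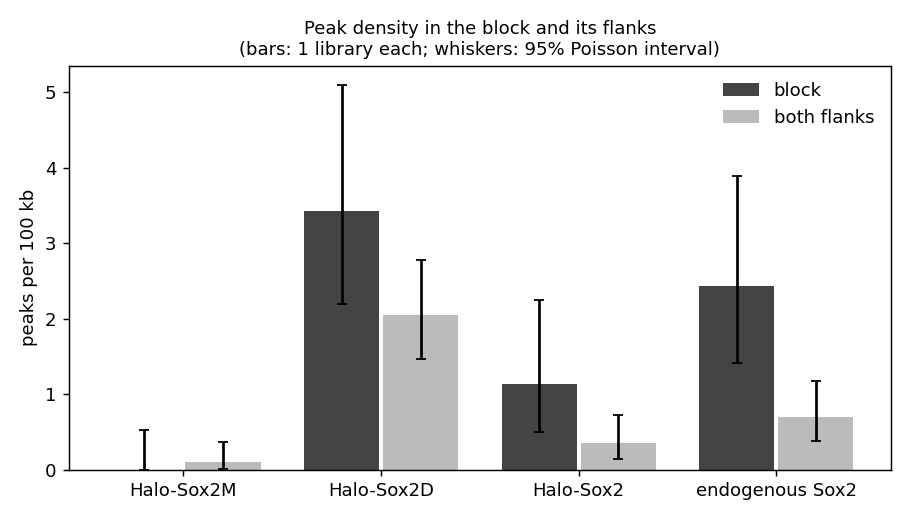
Bars give peaks per 100 kb (y axis, from 0) in the block and in both flanks together for each of the 4 lists (x axis), with 95% Poisson intervals as whiskers and 1 library per bar. The block bar is the taller one for Halo-Sox2D (3.43 against 2.05), Halo-Sox2 (1.14 against 0.35) and endogenous Sox2 (2.43 against 0.7), and is at 0 for Halo-Sox2M.

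As a share of each list, the block held 0% of Halo-Sox2M peaks (up to 0.175% allowed by a count of 0), 0.173% of Halo-Sox2D peaks (0.117 to 0.258%, Wilson interval), 0.122% of Halo-Sox2 peaks (0.0618 to 0.241%) and 0.238% of endogenous Sox2 peaks (0.148 to 0.38%). The share of Halo-Sox2D over that of Halo-Sox2 was 1.42 (0.618 to 3.66), and that of Halo-Sox2 over that of endogenous Sox2 was 0.513 (0.192 to 1.25). Both intervals include equal shares, so a difference between these lists was not detectable with this few peaks.

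The peaks were not spread along the block. The bin of 100 kb from 30.6 to 30.7 Mb, which holds the upper part of Glo1, 1700097N02Rik and the first part of Dnah8, was the fullest in each list with peaks. It held 11 of 24 Halo-Sox2D peaks, 6 of 8 Halo-Sox2 peaks and 11 of 17 endogenous Sox2 peaks. No bin of the flanks held more than 5, 2 and 4 peaks in these lists. Bins with at least as many peaks made up 0.0418% of the 26318 bins on the autosomes and X for Halo-Sox2D, 0.144% for Halo-Sox2 and 0.0456% in the endogenous Sox2 list. The bin was picked as the fullest of a block chosen for its peaks and is itself counted, so low shares follow in part from that choice. The next bin down, from 30.5 to 30.6 Mb, held 6, 1 and 4 peaks, while the bin from 30.3 to 30.4 Mb, in the middle of Btbd9, had 0 in all lists and the uppermost bin of the block had 1 Halo-Sox2D peak. Without the fullest bin of the block and that of the flanks, the ratio was 1.08 for Halo-Sox2D and 1.9 for endogenous Sox2, and only 2 Halo-Sox2 peaks were left in the block.

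**Figure D2:**
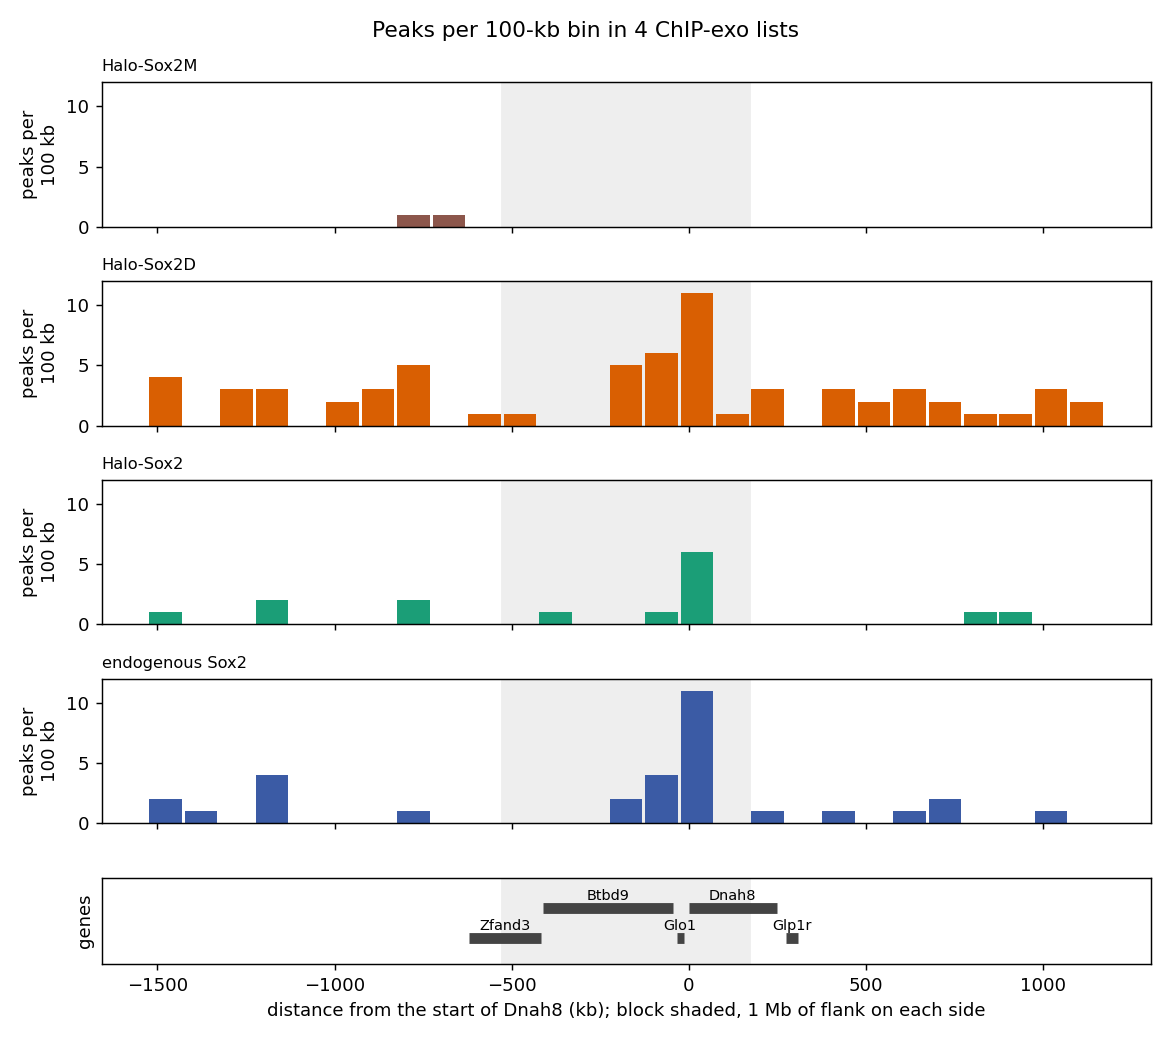
Peaks per bin of 100 kb (y axis) are plotted against the distance from the start of Dnah8 in kb (x axis) for the 4 lists, with the block shaded and the bodies of 5 genes drawn as bars at the bottom. The bin that holds the upper part of Glo1 and the start of Dnah8 stands out with 11 Halo-Sox2D, 6 Halo-Sox2 and 11 endogenous Sox2 peaks. Of these, 4 Halo-Sox2D, 6 Halo-Sox2 and 10 endogenous Sox2 peaks lie within 5 kb of the start of Dnah8. Glp1r lies outside the shading.

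Most Halo-Sox2 and endogenous Sox2 peaks of the block lay at the start of Dnah8, and most Halo-Sox2D peaks lay elsewhere. Within 5 kb on either side of it, a stretch chosen after the peaks had been seen, there were 0 Halo-Sox2M peaks, 4 Halo-Sox2D peaks, 6 Halo-Sox2 peaks and 10 endogenous Sox2 peaks. These were 16.7% of the Halo-Sox2D, 75.0% of the Halo-Sox2 and 58.8% of the endogenous Sox2 peaks of the block. Of 263103 windows of 10 kb over the autosomes and X, 112 held at least 4 Halo-Sox2D peaks, 23 held at least 6 Halo-Sox2 peaks and 10 held at least 10 endogenous Sox2 peaks. Without this stretch the ratio of block to flanks was 1.41 for Halo-Sox2D and 1.45 for endogenous Sox2, a fall that follows in part from choosing the stretch for its peaks. Only 2 Halo-Sox2 peaks were then left in the block, no more than a count of 0 allows, and no direction is read from them.

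The peaks at Dnah8 fell on both sides of the start and left the start itself empty. Halo-Sox2D had 3 peaks before it and 1 after it, Halo-Sox2 had 3 and 3, and endogenous Sox2 had 5 and 5. A first site, 2.6 to 2.66 kb before the start and inside 1700097N02Rik, had a Halo-Sox2D peak (30624274 to 30624284) and an endogenous Sox2 peak (30624324 to 30624340). A site is here a run of peaks whose centres follow each other within 500 bp. The second site, 1.27 to 1.84 kb before the start and also inside 1700097N02Rik, held 9 peaks over 590 bp, of which 2 were Halo-Sox2D, 3 Halo-Sox2 and 4 endogenous Sox2. The third, inside Dnah8 and 0.71 to 1.32 kb after its start, held 9 peaks over 620 bp, of which 1 was Halo-Sox2D, 3 Halo-Sox2 and 5 endogenous Sox2.

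Within these sites single peaks of different lists met to within a few bases. At the second site the Halo-Sox2 peak at 30625666 to 30625672 and the endogenous Sox2 peak at 30625660 to 30625671 had bases in common, with centres 3.5 bp apart. There was no Halo-Sox2D peak at that end of the site. At its lower end Halo-Sox2D (30625178 to 30625195) met Halo-Sox2 (30625173 to 30625186), with centres 7 bp apart, and the nearest endogenous Sox2 centre was 88 bp from that Halo-Sox2 peak. At the third site Halo-Sox2D (30627733 to 30627748) again met Halo-Sox2 (30627729 to 30627741), beside an endogenous Sox2 peak at 30627711 to 30627724 that touched neither. At 1.22 kb after the start, the Halo-Sox2 peak at 30628156 to 30628161 shared 1 base with the endogenous Sox2 peak at 30628148 to 30628156, and Halo-Sox2D had no peak there.

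**Figure D3:**
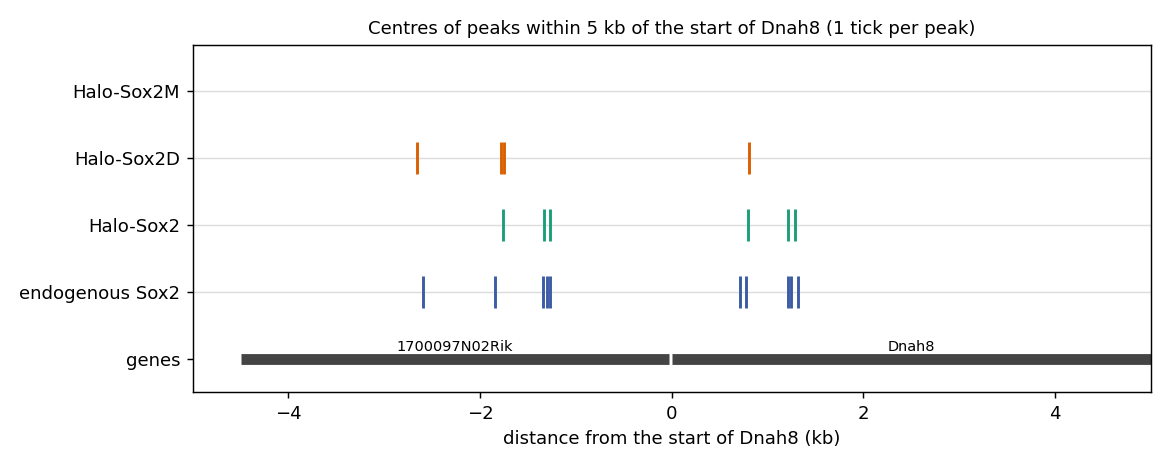
Each tick is the centre of 1 peak, plotted by its distance in kb from the start of Dnah8 (x axis) in the 4 lists (rows), with the bodies of 1700097N02Rik and Dnah8 below. Peaks form groups from 2.66 to 1.27 kb before the start and from 0.71 to 1.32 kb after it, with 0 peaks between and 0 Halo-Sox2M peaks.

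Further along the part of Dnah8 inside the block, peaks were single and belonged to 1 list each. Over its whole body Dnah8 had 0 Halo-Sox2M, 6 Halo-Sox2D, 3 Halo-Sox2 and 6 endogenous Sox2 peaks, of which 4 Halo-Sox2D peaks and all of the Halo-Sox2 and endogenous Sox2 peaks lay inside the block. Halo-Sox2D peaks of the block lay 15.11, 33.49 and 110.33 kb after the start, and an endogenous Sox2 peak lay 12.3 kb after it. A peak inside a protein-coding gene body was found for 1.32% of 21627 genes on the autosomes and X in the Halo-Sox2M list, 20.6% in the Halo-Sox2D list, 9.16% in the Halo-Sox2 list and 7.5% in the endogenous Sox2 list. At least as many peaks as Dnah8 had were found in 0.453% of genes for Halo-Sox2D, 0.8% for Halo-Sox2 and 0.19% in the endogenous list. Long genes have more room for peaks, and Dnah8 was chosen with these lists known. Per 100 kb of gene body Dnah8 had 2.41 Halo-Sox2D, 1.21 Halo-Sox2 and 2.41 endogenous Sox2 peaks, and 12.2, 5.81 and 3.1% of genes were at least as dense.

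Glo1 was marked above all in the Halo-Sox2D list. Its body held 0 Halo-Sox2M, 8 Halo-Sox2D, 1 Halo-Sox2 and 1 endogenous Sox2 peaks. Of the 21627 genes, 0.231% had at least 8 Halo-Sox2D peaks, and 0.527% were at least as dense as the 40.4 Halo-Sox2D peaks per 100 kb of Glo1. Several of the 8 peaks lie within 500 bp of each other, so they mark fewer places than 8. The 5.05 peaks per 100 kb of Glo1 in either the Halo-Sox2 or the endogenous Sox2 list were equalled or passed by 1.92 and 1.58% of genes. Each of these densities rests on 1 peak in a short body and is not read as high. By number, 9.16 and 7.5% of genes had at least 1 peak in these lists. Halo-Sox2D was the longest list, 2.11 times the length of the Halo-Sox2 list in peaks, and with 8 against 1 peaks at 1 gene chosen on these lists no test was made.

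A single place in Glo1 was shared by 3 lists. The Halo-Sox2D peak at 30598470 to 30598483, the Halo-Sox2 peak at 30598471 to 30598481 and the endogenous Sox2 peak at 30598467 to 30598482 lay on top of each other, 14.18 kb after the start of Glo1. Their centres were 0.5 to 2 bp apart, the closest match of the lists in the block, and a second Halo-Sox2D peak lay 76.5 bp from the Halo-Sox2 centre. The other 6 Halo-Sox2D peaks in the body had no centre of another list within 500 bp and lay 2.74, 5.0, 5.19, 14.82, 17.63 and 17.79 kb after the start. The 2 Halo-Sox2D peaks in the printed promoter stretch, at 30612745 to 30612748 and 30612772 to 30612782, lay 0.09 and 0.12 kb before the start and had no peak of another list within 11 kb.

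**Figure D4:**
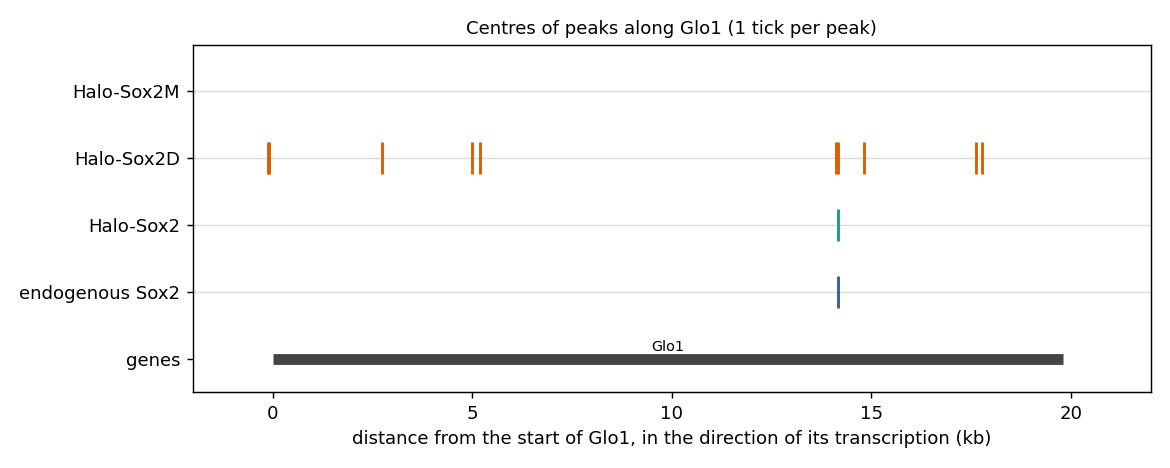
Each tick is the centre of 1 peak, plotted by its distance in kb from the start of Glo1 in the direction of transcription (x axis) in the 4 lists (rows), with the body of Glo1 below. Halo-Sox2D has 8 ticks along the body and 2 just before the start, and Halo-Sox2 and endogenous Sox2 have 1 tick each in the body, at the shared place 14.18 kb in, with their peaks near Dnah8 beyond the plotted range.

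Btbd9 is the largest gene of the block, and most peaks within 50 kb of it lay outside its body. Its body held 0 Halo-Sox2M, 6 Halo-Sox2D, 0 Halo-Sox2 and 5 endogenous Sox2 peaks, against 0, 21, 8 and 16 when 50 kb on each side were counted too. At least as many peaks were found in 0.453% of genes for Halo-Sox2D and 0.333% for endogenous Sox2. Btbd9 was chosen with these lists known, so such ranks follow in part from that choice. Per 100 kb of its long body it had 1.63 Halo-Sox2D and 1.36 endogenous Sox2 peaks, and 14.7 and 4.49% of genes were at least as dense. One site, from 30463958 to 30464440, held 3 Halo-Sox2D and 2 endogenous Sox2 peaks. No Halo-Sox2D peak there overlapped an endogenous Sox2 peak, and the nearest endogenous Sox2 centre was 126 to 322.5 bp from each Halo-Sox2D centre. A second site, from 30533303 to 30533376, held 3 endogenous Sox2 peaks within 74 bp and no peak of another list. The remaining 3 Halo-Sox2D peaks lay singly, at 30489875 to 30489893, 30490910 to 30490926 and 30522053.

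Glp1r had 0 peaks in its body in all 4 lists. Within 50 kb of it there were 2 Halo-Sox2D peaks and 1 endogenous Sox2 peak, and 0 Halo-Sox2M and Halo-Sox2 peaks. Zfand3 had 0 Halo-Sox2M, 2 Halo-Sox2D, 1 Halo-Sox2 and 0 endogenous Sox2 peaks in its body, of which 1 Halo-Sox2D peak (30196612 to 30196622) and the Halo-Sox2 peak (30207613, 1 bp wide) lay in the block. They lay about 11 kb apart. Of the genes of the flanks, Cpne5, which encodes a copine, had 4 Halo-Sox2D, 1 Halo-Sox2 and 1 endogenous Sox2 peaks. Mdga1, which encodes a cell-surface protein of neurons, had 1 Halo-Sox2M, 3 Halo-Sox2D, 2 Halo-Sox2 and 1 endogenous Sox2 peaks. Ubash3a had 3 Halo-Sox2D peaks, Pde9a had 1 Halo-Sox2D and 1 Halo-Sox2 peak, Slc37a1 had 2 endogenous Sox2 peaks and BC004004 had 1.

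The share of peaks with a peak of another list nearby was higher in the block than in the flanks for each of the 6 ordered pairs of Halo-Sox2D, Halo-Sox2 and endogenous Sox2. The intervals overlapped in 4 of them and were apart for Halo-Sox2 with endogenous Sox2 in both directions. There the flanks had only 1 of 7 Halo-Sox2 peaks (14.3%, 2.57 to 51.3%) and 1 of 14 endogenous Sox2 peaks (7.14%, 1.27 to 31.5%). Both directions count the same places, so no difference is read from these intervals. Of the Halo-Sox2D peaks, 5 of 24 had a Halo-Sox2 centre within 500 bp in the block (20.8%, 9.24 to 40.5%), against 2 of 41 in the flanks (4.88%, 1.35 to 16.1%) and 13.0% of the whole list. An endogenous Sox2 centre was near 9 of 24 Halo-Sox2D peaks in the block (37.5%, 21.2 to 57.3%), 4 of 41 in the flanks (9.76%, 3.86 to 22.5%) and 15.2% of the whole list. Of the Halo-Sox2 peaks in the block, 7 of 8 had a Halo-Sox2D centre within 500 bp (87.5%, 52.9 to 97.8%) and 7 of 8 an endogenous Sox2 centre, against 29.0% and 31.0% of the whole list. The one Halo-Sox2 peak with neither was that in Zfand3. Of the endogenous Sox2 peaks in the block, 12 of 17 had a Halo-Sox2D centre within 500 bp (70.6%, 46.9 to 86.7%) and 10 of 17 a Halo-Sox2 centre (58.8%, 36.0 to 78.4%), against 38.9% and 35.2% of the whole list. With an overlap of at least 1 bp as the criterion, 4.17% of the Halo-Sox2D peaks of the block met an endogenous Sox2 peak, 37.5% and 50% of the Halo-Sox2 peaks met a Halo-Sox2D and an endogenous Sox2 peak, and 5.88 and 23.5% of the endogenous Sox2 peaks met a Halo-Sox2D and a Halo-Sox2 peak. The overlap shares are given for the block alone, so they cannot be called high or low for these lists. Because many of these peaks stand in the sites at Dnah8, they are few places counted several times.

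Counted by place, the picture was more even. The 49 peaks formed 20 sites, of which 15 held 1 list, 2 held 2 lists and 3 held 3 lists. Sites of 2 or more lists were 25.0% of those in the block (11.2 to 46.9%), 9.26% of the 54 sites in the flanks (4.02 to 19.9%) and 12.9% of all 19527 sites of the series, so the interval of the block reaches down to the level of the whole series. The 3 sites of 3 lists were those before and after the start of Dnah8 and the shared place in Glo1. When each site of a list was counted once, the ratio of block to flanks was 1.21 for Halo-Sox2D, 1.9 for Halo-Sox2 and 1.9 in the endogenous Sox2 list.

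Within each list too, peaks of the block stood close together. The block was chosen for its many peaks, so a high share of close neighbours follows in part from that choice. Many of the Halo-Sox2 and endogenous Sox2 neighbours stand in the sites at Dnah8 and are few places counted several times. The Halo-Sox2D neighbours likewise share sites, in Btbd9, along Glo1 and at Dnah8, so places are counted more than once there too. A second peak of the same list lay within 500 bp for 13 of 24 Halo-Sox2D peaks in the block (54.2%, 35.1 to 72.1%), against 4.88% in the flanks (1.35 to 16.1%) and 20.5% over the autosomes and X. For Halo-Sox2 it was 6 of 8 (75.0%, 40.9 to 92.9%), against 28.6% in the flanks (8.22 to 64.1%) and 25.3% over the autosomes and X, and for endogenous Sox2 13 of 17 (76.5%, 52.7 to 90.4%), against 21.4% (7.57 to 47.6%) and 50.8%. Peaks inside protein-coding gene bodies were 19 of 24 for Halo-Sox2D (79.2%, 59.5 to 90.8%), 5 of 8 for Halo-Sox2 and 12 of 17 for endogenous Sox2 (70.6%, 46.9 to 86.7%), against 53.7, 85.7 and 42.9% in the flanks and 51.1, 43.5 and 40.7% over the autosomes and X. The bodies of Zfand3, Btbd9, Glo1 and Dnah8 fill nearly all of the block. High shares there are therefore not read as a preference for gene bodies. An end of a protein-coding gene was within 1 kb of 3 of 24, 1 of 8 and 2 of 17 peaks of the block (12.5, 12.5 and 11.8%), against 12.2, 0 and 28.6% in the flanks and 21.3, 10.2 and 6.34% over the autosomes and X. The share of Halo-Sox2 peaks inside gene bodies and that of endogenous Sox2 peaks near gene ends were thus lower in the block than in its flanks, with intervals that overlap. For Halo-Sox2 in gene bodies they were 30.6 to 86.3% in the block and 48.7 to 97.4% in the flanks, and for endogenous Sox2 near gene ends 3.29 to 34.3% and 11.7 to 54.6%.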

How the data were processed

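The authors deposited 1 peak list per library, with chromosome, start and end and no score, so no unit of signal was available. Bowtie2 and mm10 were used, per the submitters' processing notes. The sources used here give neither the peak caller and its threshold nor what was done with reads of repeated sequence. The lists have no header, so starts were taken to count from 0, and they were raised by 1 to count from 1. Statements on single bases, such as the printed capitals and overlaps of 1 base, depend on this reading. A peak was placed by its centre. Gene ends and promoter sequences, the second with strand, are those of RefSeq for GRCm38.p6. Peaks were counted in Python 3.11.15 with numpy 2.4.6, pandas 2.3.3 and scipy 1.17.1, and plotted with matplotlib 3.10.9. Windows of 700 kb without overlap, with 1 Mb of flank on each side, gave the background on the autosomes and X. A count of 0 allows up to 3 counts. With 1 library per group no test between groups was run. The counting code was tested on simulated lists.

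The block, its genes and the searched motifs were chosen with earlier results of these data known. The genes named are Btbd9, Glo1, Dnah8, Glp1r, any other protein-coding gene that reaches into the block, 1700097N02Rik (named after its peaks were seen), and in each list up to 3 genes of the flanks with most peaks in the body, with ties in alphabetical order.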

Additional observations from a re-analysis of the deposited data

How the results depend on the processing

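When the flanks, the edges, the unit counted or the placement of peaks was changed, the ratio of block to flanks stayed above 1. This held for Halo-Sox2D, Halo-Sox2 and endogenous Sox2. With the fullest bin left out it stayed above 1 for Halo-Sox2D and endogenous Sox2. The ranges were 1.08 to 2.38, 1.27 to 5.71 and 1.9 to 6.07. Without the fullest bin only 2 Halo-Sox2 peaks were left in the block, no more than a count of 0 allows, so no direction is read there. In settings chosen after seeing the data, extending the block to the end of Glp1r gave 1.57, 2.13 and 2.53, and leaving out 5 kb on each side of the start of Dnah8 gave 0.828 for Halo-Sox2 and 1.45 for endogenous Sox2. That stretch was chosen for its peaks, and the 0.828 rests on 2 remaining peaks, no more than a count of 0 allows, so no direction is read from it. Counting 50 kb around each gene gave, for Halo-Sox2D, Halo-Sox2 and endogenous Sox2, 21, 8 and 16 peaks at Btbd9, 16, 7 and 12 at Glo1 and 20, 7 and 13 at Dnah8, since windows of neighbours overlap. It gave 2 Halo-Sox2D peaks and 1 endogenous Sox2 peak at Glp1r and 1 Halo-Sox2M peak at Zfand3. By nearest gene Dnah8 had 10, 6 and 12 peaks and Zfand3 had 1 Halo-Sox2M peak. Overlap of at least 1 bp in place of centres within 500 bp left 37.5% of Halo-Sox2 peaks with a Halo-Sox2D peak (also 37.5% within 50 bp), 4 of 8 (50%) with an endogenous Sox2 peak, and 23.5% of endogenous Sox2 peaks with a Halo-Sox2 peak. Between Halo-Sox2D and endogenous Sox2 it left 4.17% of Halo-Sox2D and 5.88% of endogenous Sox2 peaks, and centres within 50 bp left 8.33 and 11.8%. The other 10 settings of that measure and all 8 of the genome windows stayed within the counting interval. No stricter peak threshold was run because the lists hold no score. No paired analysis was possible because each group has 1 library and the labels carry no replicate numbers. Halo-Sox2M, with 0 peaks in the block, gave no ratio.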
